A study of Homo sapiens and Mus musculus with 7 samples.

Results

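The data describe 6 genes, HMGA1, HMGA2, LIN28B, IGF2BP1, IGF2BP2 and IGF2BP3, which are targets of the let-7 microRNAs and are known as oncofetal genes, active in the embryo and again in many tumours. A probe set, the group of short probes from which an Affymetrix array computes 1 signal, was assigned to a gene when the platform annotation gave it that gene symbol and no other. All 6 genes were found this way among 19775 genes on the human arrays, with 21 probe sets. On the mouse arrays 4 of the 6 were found among 18193 genes, with 15 probe sets. Total RNA of 7 samples had been hybridised, 1 array to a sample. HeyA8 cells, an ovarian cancer line of human origin, were measured with the control PLKO, a lentiviral vector for hairpin RNAs, and with FAS stably knocked down by shRNA4 or by shRNA6. HepG2 cells, a human liver cancer line, were measured with PLKO and with shRNA6. Liver tissue of male C57/BL6 mice aged 2 months was measured from a wild type and from a Fas knock-out animal.

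Each of the 7 groups was 1 array, so no group has replicates, and this small number of arrays limits how precise any value is. The human cells all carried a vector, and the hairpin samples are called a knockdown in one label and a knock-out in another; the sources used here do not say whether a culture was a single clone or which allele the mice carried. Both HeyA8 hairpins were compared with the same control array. FAS, the receptor that the hairpins target, had a signal of 2104 in the HeyA8 control, 1184 with shRNA4 and 856 with shRNA6. In HepG2 it was 1087 in the control and 631 with shRNA6, and mouse Fas was 560 in the wild type and 169 in the knock-out. Of 9 measured hepatocyte markers, 9 were above the array median on both HepG2 arrays and at most 1 on any HeyA8 array. Of 8 further markers of mature hepatocytes, 5 were above it in the HepG2 control and 6 with shRNA6, and 2 or 3 on the HeyA8 arrays. Of the epithelial and ovarian carcinoma markers PAX8, WT1 and KRT7 were higher in HeyA8 than in HepG2, by 2.28, 2.07 and 6.83 on the log2 scale (limma, adjusted p of 8.71e-07, 1.47e-05 and 2.97e-07), and EPCAM and CDH1 were higher in HepG2 (limma, adjusted p of 3.49e-06 and 9.55e-06), EPCAM at -4.69 and CDH1 at least 13-fold against the HeyA8 medians. KRT7 was near or below the array median in HepG2, at 65.4 and 15.4, so the size of its difference is uncertain. MUC16 was below the median on all 5 human arrays. All 8 measured hepatocyte markers, 6 of 6 Kupffer cell markers and 6 of 6 endothelial markers were above the median on both mouse arrays. In such bulk RNA fewer cells of a type and less RNA per cell cannot be told apart.

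MicroRNAs of the let-7 family pair with target mRNAs through a short stretch near their 5′ end, the seed, and thereby lower the amount of protein made. They are scarce in early embryos and abundant in differentiated tissue. LIN28B is an RNA-binding protein that holds let-7 precursors back from maturation, and its own mRNA is a let-7 target, so that each represses the other. HMGA1 and HMGA2 are small chromatin proteins that bind the minor groove of AT-rich DNA and shape the assembly of transcription factors. IGF2BP1, IGF2BP2 and IGF2BP3 bind mRNAs and affect their stability, transport and translation. In adult liver the fetal members of the set are known to be low, while some liver cancers express them again.

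The mature human let-7 sequences are shown because the seed is what the 6 genes have in common as targets. They are from RefSeq (GRCh38.p14), written 5′ to 3′, with the seed, bases 2 to 8, in capitals.
hsa-let-7a-5p: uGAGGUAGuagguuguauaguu
hsa-let-7b-5p: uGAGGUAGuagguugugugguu
hsa-let-7c-5p: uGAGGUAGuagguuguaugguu
hsa-let-7d-5p: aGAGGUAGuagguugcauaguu
hsa-let-7e-5p: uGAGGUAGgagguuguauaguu
hsa-let-7f-5p: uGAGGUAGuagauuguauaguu
hsa-let-7g-5p: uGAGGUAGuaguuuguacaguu
hsa-let-7i-5p: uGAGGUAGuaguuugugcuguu
hsa-miR-98-5p: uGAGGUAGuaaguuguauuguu
All 9 forms share the 1 seed GAGGUAG, whose pairing partner in a target reads CUACCUC. Outside the seed they differ from let-7a at 1 to 4 of 22 positions. They are encoded at 12 loci, several of them inside longer host transcripts. One let-7a copy (chr11:122146568-122146589, minus strand) lies within the span of MIR100HG, and let-7c (chr21:16539838-16539859, plus strand) within that of MIR99AHG. Another let-7a copy (chr22:46112752-46112773, plus strand) and let-7b (chr22:46113691-46113712, plus strand) lie within MIRLET7BHG. The arrays measured host transcripts and target mRNAs, and not the mature microRNAs.

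The first comparison set ovarian HeyA8 cells against hepatic HepG2 cells. LIN28B and IGF2BP1 were high in HepG2 and below the array median in HeyA8, HMGA1 and IGF2BP2 were higher in HeyA8, and IGF2BP3 was high in both at nearly the same signal. HMGA2 was high in both lines, and its probe sets gave opposite directions. One limma fit over the 5 human arrays estimated cell line and knockdown together on log2(signal + 12.6), with Benjamini-Hochberg adjustment over 13936 genes. Of the 6 genes 5 passed an adjusted p of 0.05 between the lines, 2 higher in HeyA8 and 3 higher in HepG2. With the mean of all probe sets of a gene HMGA2 turned, and the split became 3 and 2. LIN28B and IGF2BP1 were kept for the fit by their HepG2 arrays alone. Without the filter 5 of the 6 passed as well. Over all genes 28.0% were called higher in HeyA8 and 30.0% higher in HepG2, 58.0% either way, so a call by itself does not set these genes apart from others. The share of all genes whose HeyA8 and HepG2 arrays did not overlap was not counted, so a lack of overlap does not either. The p-values measure no more than how these samples scatter, possibly for technical reasons: the scatter comes from the 2 HeyA8 hairpins and from unequal knockdown effects in the lines.

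**Figure D1:**
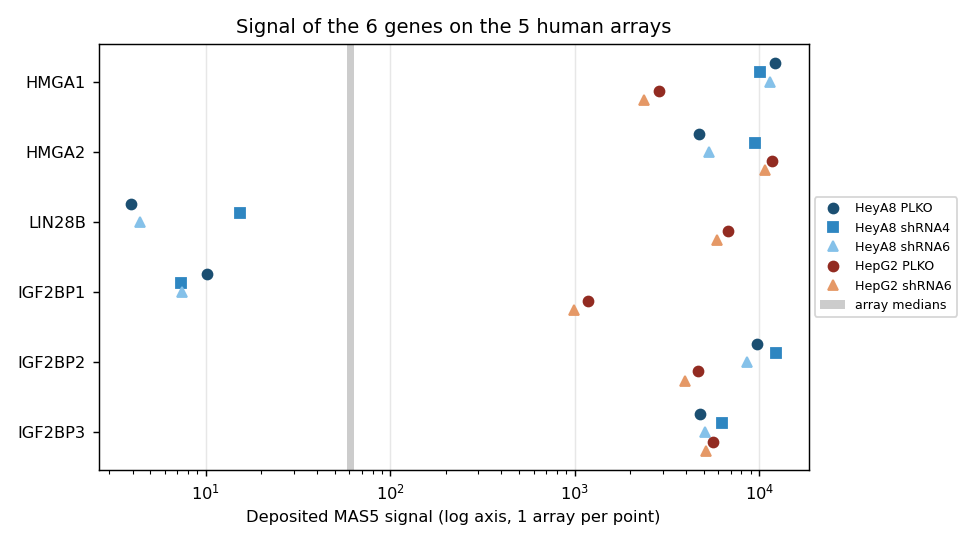
Deposited signal (log axis) of the brightest probe set of each of the 6 genes on the 5 human arrays, 1 point per array, with the array medians of 57.8 to 63.4 as a grey band. LIN28B and IGF2BP1 lie left of the band in HeyA8 and right of it in HepG2, and the other 4 genes lie right of it on every array.

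LIN28B, the inhibitor of let-7 maturation, had signals of 3.92 in the HeyA8 control, 15.3 with shRNA4 and 4.41 with shRNA6, against 6748 in the HepG2 control and 5900 with shRNA6. Its single probe set (229349_at) stood at percentiles of 9.08, 26.2 and 11 among the probe sets of the HeyA8 arrays, and at 97.4 and 97 on the HepG2 arrays. The cell lines did not overlap, and the order within HeyA8 lies among signals where the array measures little. The fitted difference, HeyA8 minus HepG2, was -8.34 ± 0.30 (SE), with an adjusted p of 2.37e-07 by limma. Because the HeyA8 signals are so low, the size and its SE depend on the pseudocount, the constant added before the logarithm. The difference was -9.78 ± 0.55 with 1 and -6.79 ± 0.17 with 50. Taking the array median in place of the lower HeyA8 signals, a bound chosen after the values were seen, LIN28B was at least 106-fold higher in HepG2.

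IGF2BP1, an mRNA-binding protein of fetal tissues, showed the same pattern on 3 of 3 probe sets. The brightest (227377_at) gave 10.1, 7.36 and 7.41 in the HeyA8 control, shRNA4 and shRNA6 cells, against 1180 and 994 in the HepG2 control and shRNA6 cells. The second (223689_at) gave 6.95, 9.09 and 12.1 in HeyA8 against 707 and 573 in HepG2. The third (241574_s_at) was dimmer, with 12.3, 48.9 and 3.61 in HeyA8 against 139 and 144 in HepG2. No HeyA8 array reached any HepG2 array on any of them. The fitted difference of the brightest was -5.68 ± 0.31 (SE; limma, adjusted p = 1.99e-06). With pseudocounts of 1 and 50 it was -6.82 ± 0.44 and -4.26 ± 0.20, and against the HeyA8 medians the gene was at least 18.2-fold higher in HepG2. LIN28B and IGF2BP1 were among 298 genes, 1.51% of 19775, that lay above the 75th percentile on both HepG2 arrays and below the median on all 3 HeyA8 arrays, limits set after the values were seen. The reverse held for 357 genes, 1.81%, and for none of the 6.

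HMGA1, which remodels chromatin in embryonic and many tumour cells, was high in both lines and higher in HeyA8. Its main probe set (206074_s_at) gave 12203, 10066 and 11458 in the HeyA8 control, shRNA4 and shRNA6 cells, and 2855 and 2384 in the HepG2 control and shRNA6 cells. Every HeyA8 array lay above both HepG2 arrays. The difference was 2.13 ± 0.09 (SE; limma, adjusted p = 6.89e-07), a fold of 4.39, and 16.0% of genes differed by as much. The other HMGA1 probe set (210457_x_at, of a kind that may cross-hybridise) gave 1.84 ± 0.15.

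IGF2BP2, a paralogue also found in adult tissues, was likewise higher in HeyA8. It gave 9687, 12363 and 8535 in the HeyA8 control, shRNA4 and shRNA6 cells, against 4656 and 3954 in the HepG2 control and shRNA6 cells (218847_at). The lines did not overlap, and the difference was 1.24 ± 0.16 (SE; limma, adjusted p = 0.000267), a fold of 2.36. The dimmer probe set (223963_s_at) gave 261, 246 and 179 against 113 and 106, a difference of 1.003 ± 0.24. IGF2BP2 stood at percentiles of 95.3 to 98.8 on the 5 arrays, and 29.6% of genes differed between the lines by as much.

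IGF2BP3, a fetal and cancer-associated paralogue, gave 4764, 6281 and 5099 in HeyA8 and 5615 and 5167 in HepG2 in the same order of samples (203819_s_at). The HepG2 values lay within the range of the HeyA8 values. The difference was -0.03 ± 0.13 (SE; limma, adjusted p = 0.869), and its sign turned in 5 of 15 alternative analyses. None of the 4 IGF2BP3 probe sets passed when all probe sets were fitted, with 2 others at -0.05 and -0.02 and the dimmest at 0.67 (limma, adjusted p = 0.0951). Thus the 3 paralogues had 3 arrangements over these arrays: IGF2BP1 high in HepG2 alone, IGF2BP2 higher in HeyA8, and IGF2BP3 not distinguished.

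HMGA2, an architectural chromatin protein that is among the strongest let-7 targets, was represented by 9 probe sets, of which 7 had an array above its median. The brightest (208025_s_at) gave 4705, 9521 and 5334 in the HeyA8 control, shRNA4 and shRNA6 cells, and 11679 and 10724 in the HepG2 control and shRNA6 cells. Both HepG2 arrays lay above all HeyA8 arrays, and the difference was -0.90 ± 0.25 (SE; limma, adjusted p = 0.0146), a fold of 1.86. In 11 of 15 alternatives it kept its direction and call. Without the HeyA8 control array the difference was -0.59 (limma, adjusted p = 0.192), and without the HepG2 control array -0.59 (adjusted p = 0.181). Without the variance trend the adjusted p by limma was 0.105, and with the mean of all HMGA2 probe sets the difference turned to 1.43 (limma, adjusted p = 0.00104).

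Most of the other HMGA2 probe sets ran the opposite way. The next brightest (1567224_at) gave 2391, 1709 and 2096 in HeyA8 against 362 and 331 in HepG2, a difference of 2.56 ± 0.14. The third (1561633_at) gave 1293, 908 and 1177 against 76.5 and 124, a difference of 3.34 ± 0.24. On both, every HeyA8 array lay above both HepG2 arrays. When each of 27574 probe sets was fitted on its own, 5 of the 7 HMGA2 probe sets were higher in HeyA8, 1 was higher in HepG2 and 1 (1559891_at, -0.23, adjusted p = 0.641 by limma) did not pass. Over all probe sets in that fit 26.5% were called in each direction. Of 7200 genes with 2 or more fitted probe sets, 176 (2.44%) had calls in both directions, and of 289 genes with 6 or more, 21 (7.27%), counts added after the HMGA2 values were seen. The files do not say where in the gene each probe set lies or which transcripts it detects, and the part of transcript form or probe binding in the disagreement was not tested. HMGA2 therefore has no single direction between the lines in these data.

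**Figure D2:**
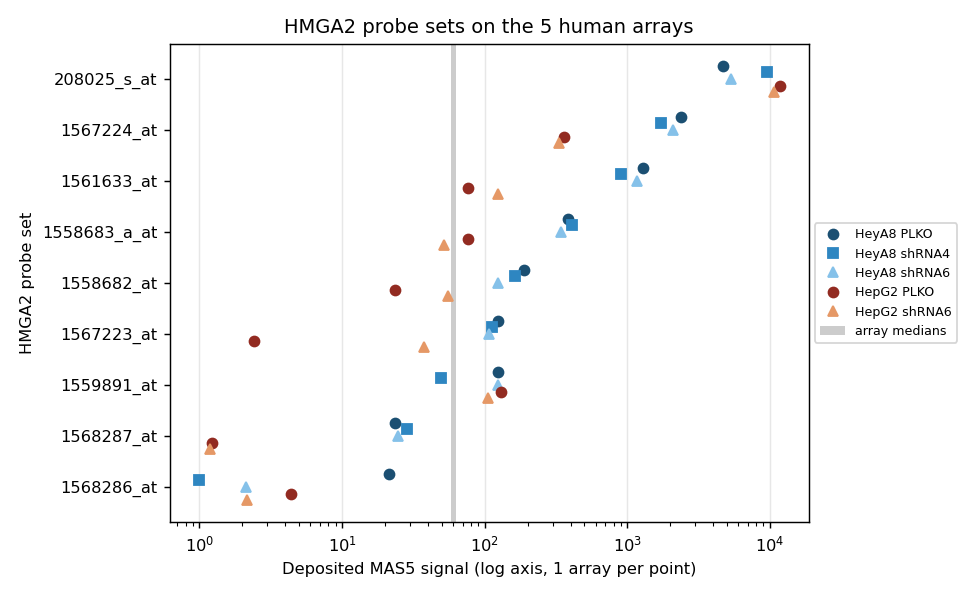
Deposited signal (log axis) of the 9 HMGA2 probe sets on the 5 human arrays, 1 point per array, ordered by mean signal in HeyA8, with the array medians of 57.8 to 63.4 as a grey band. On the top probe set the HepG2 points lie right of the HeyA8 points, and on the next 5 rows they lie left.

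Host transcripts of let-7 were measured beside their target genes. The list of hosts was partial: it lacked WDR82, MIRLET7IHG and SPACA6, which span let-7g, let-7i and let-7e. It also held symbols of microRNA genes themselves, such as MIRLET7D. Of 10 listed host transcripts 6 had a probe set and 5 were bright enough to be tested, of which 4 were higher in HeyA8 and 1 in HepG2 (limma; 28.0% and 30.0% over all genes), with a median difference of 1.72 against -0.05 over all genes. MIR100HG, the host of a let-7a copy and of miR-100 and miR-125b, gave 2788, 2225 and 2865 in the HeyA8 control, shRNA4 and shRNA6 cells, and 2.42 and 2.28 in the HepG2 control and shRNA6 cells (225381_at). It was thus high in HeyA8, where LIN28B was low, and low in HepG2, a contrast between the cell lines only. Of 19775 genes 357, 1.81%, lay above the 75th percentile on all HeyA8 arrays and below the median on both HepG2 arrays. A link of MIR100HG with LIN28B was not tested. MIR100HG was at least 42.8-fold higher in HeyA8 against the HepG2 medians (limma, adjusted p = 6.32e-08). Its other probe set (241975_at) was below the median on all 5 arrays, at 27.1 to 40.7.

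The other hosts were dimmer. MIRLET7BHG gave 260, 248 and 184 in HeyA8 against 71.8 and 55.5 in HepG2, and MIR99AHG 85.7, 127 and 99.3 against 1.41 and 14.8. The difference of MIRLET7BHG was 1.72 (limma, adjusted p = 0.000808). MIR99AHG passed as well (limma, adjusted p = 0.00165), at least 1.68-fold higher in HeyA8 against the HepG2 medians. The probe set annotated to MIRLET7D gave 430, 766 and 696 in HeyA8 against 167 and 248 in HepG2, a difference of 1.42 (limma, adjusted p = 0.000164). HUWE1, a ubiquitin ligase gene that hosts a let-7f copy and miR-98, was higher in HepG2 by its representative probe set, at -0.66 (limma, adjusted p = 0.00234), while 3 of its other probe sets were fitted and did not pass. Host transcript level need not follow mature let-7, which was not measured.

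Of 14 listed genes that process let-7 12 were tested, with 3 higher in HeyA8 and 4 higher in HepG2 and a median of -0.13 against -0.05. Beside 28.0% and 30.0% over all genes these counts are near the background. AGO2, the slicing Argonaute, was at 1.43, SYNCRIP, an RNA-binding protein, at 1.06 and TUT7, a uridylyl transferase of let-7 precursors, at 1.02 (limma, adjusted p of 3.2e-05, 2.25e-05 and 0.000342). PRKRA, a Dicer partner, was at -0.85 (limma, adjusted p = 0.000115). LIN28A, the paralogue of LIN28B, was below the median on all 5 human arrays, so that LIN28B was the LIN28 gene with a high signal in HepG2.

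Of 40 other known let-7 targets 34 were tested, with 10 higher in HeyA8 and 19 higher in HepG2 by limma (28.0% and 30.0% over all genes), and a median of -1.005 against -0.05 over all genes. TRIM71, an RNA-binding ubiquitin ligase of early embryos, gave 55.9, 31.7 and 24.8 in HeyA8 against 8228 and 7687 in HepG2, at least 133-fold higher in HepG2. DUSP9, a phosphatase of MAP kinases, was at least 69-fold higher in HepG2, and INSR, the insulin receptor, was at -4.74. The HeyA8 signals of INSR were 30.4, 79.8 and 20.8, near or below the array medians, so its size depends on the pseudocount. IRS2, an adaptor of insulin signalling, was at least 33.5-fold higher in HeyA8. The adjusted p by limma was 9.89e-08 for TRIM71, 2.97e-06 for DUSP9, 2.91e-05 for INSR and 1.75e-07 for IRS2. Members of the list thus ran in both directions. LIN28B, TRIM71 and DUSP9 were alike in being below the median on the HeyA8 arrays and high on those of HepG2. At the limits used above, 1.51% of 19775 genes had that pattern.

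**Figure D3:**
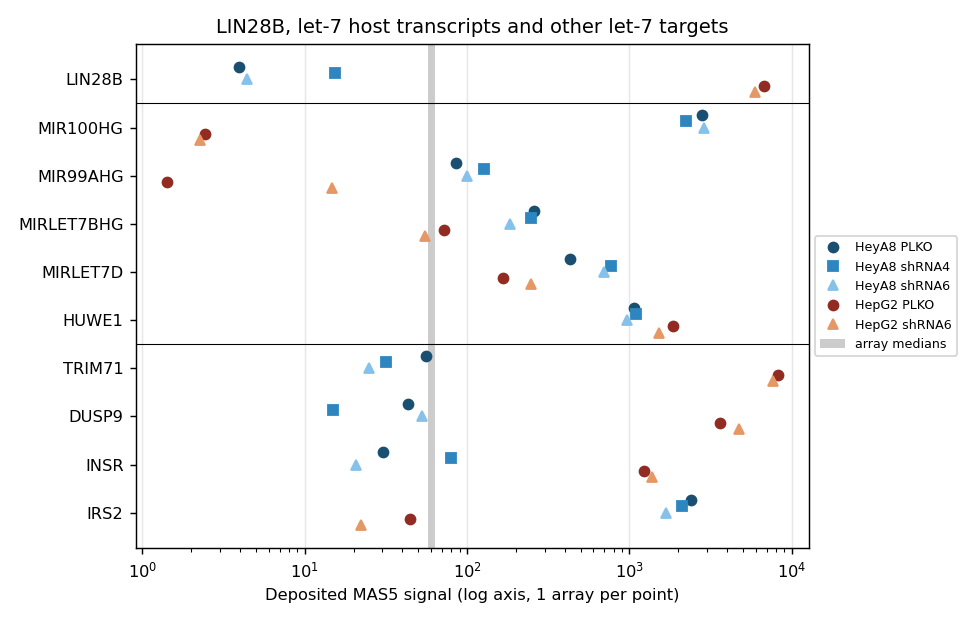
Deposited signal (log axis) of LIN28B, 5 let-7 host transcripts and 4 other let-7 targets on the 5 human arrays, 1 point per array, with the array medians of 57.8 to 63.4 as a grey band. MIR100HG and IRS2 lie right of the band in HeyA8 and left of it in HepG2, while LIN28B, TRIM71 and DUSP9 lie the other way round.

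Other oncofetal genes and mRNAs bound by IGF2BP proteins gave the setting of these differences. Of 15 further oncofetal genes 11 were tested, with 3 higher in HeyA8, 6 higher in HepG2 (28.0% and 30.0% over all genes) and a median of -4.69 against -0.05 over all genes. Against the HeyA8 medians PEG10, GPC3 and DLK1 were at least 275-fold, 395-fold and 194-fold higher in HepG2 (limma, adjusted p of 8.61e-08, 8.61e-08 and 8.18e-07). AFP, the fetal serum protein, was at -7.87 (limma, adjusted p = 2.41e-08), while TPBG was at 4.21 and higher in HeyA8. The hepatocyte markers moved the same way, with 9 of 9 higher in HepG2 and a summed signal of 121 to 194 on the HeyA8 arrays against 189237 and 192735 on those of HepG2. Of 8 markers of mature hepatocytes 6 were tested and 4 were higher in HepG2 (30.0% over all genes). Among them CYP2E1 and TAT were below the median on both HepG2 arrays. Of 8 mesenchymal markers 6 were higher in HeyA8, among them VIM at 8.69 (limma, adjusted p = 2.12e-07). The HepG2 signals of VIM were 87.2 and 26.1, near or below the array medians, so its size depends on the pseudocount. LOX was higher in HepG2, at -0.98 (limma, adjusted p = 0.00568), and FN1 was at -0.21 (adjusted p = 0.432). Their part in the differences of the 6 genes was not tested. Of 12 mRNAs known to be bound by IGF2BP proteins 8 were tested, with 3 higher in HeyA8, 2 higher in HepG2 and a median of 0.07 against -0.05, near the 58.0% called over all genes. CD44, a hyaluronan receptor, was at least 255-fold higher in HeyA8 against the HepG2 medians, MKI67 was at 0.89 and MYC at 0.69, while ABCB1, a drug exporter, was at -3.36 (limma, adjusted p of 2.59e-08, 0.000357, 0.000686 and 2.15e-05). The HeyA8 signals of ABCB1 were 50.99, 58.35 and 103.8, in part below the array medians, so its size depends on the pseudocount.

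The question for FAS was whether the 6 genes differed between knockdown and control cells. None of the 6 passed for an effect common to both lines, and neither did any of 13936 genes (0% called; limma), of which 568 (4.08%) had an unadjusted p under 0.05. The common effect was -0.22 ± 0.09 for HMGA1, 0.29 ± 0.25 for HMGA2, -0.05 ± 0.16 for IGF2BP2 and 0.09 ± 0.13 for IGF2BP3 (log2 ± SE). With the mean of all probe sets HMGA1 was at -0.353 and HMGA2 at -0.05. The values of LIN28B and IGF2BP1 rest in part on HeyA8 signals below the median. Adjusted p-values by limma were 0.991 to 0.995. FAS itself was at -0.93 ± 0.17 (limma, adjusted p = 0.991) and did not pass either.

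In HeyA8 the hairpins did not give HMGA2 the same value. With shRNA4 its brightest probe set went from 4705 to 9521, a log2 ratio of 1.02, and with shRNA6 to 5334, a ratio of 0.18. The first ratio was at percentile 99.8 of 7674 bright genes, of which 0.208% were at least 2-fold higher. A gene counts as bright if its signal exceeded the 75th percentile of 1 or more arrays in the comparison. Of the 6 other kept probe sets 5 had a lower signal on the same array, with ratios of -0.48 (1567224_at), -0.50 (1561633_at) and -1.14 (1559891_at) among them, and 1 was at 0.10, and with the mean of all HMGA2 probe sets its ratio turned to -0.27. The difference between the hairpin arrays had an SD of 0.34 over 8928 bright genes.

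By their brightest probe sets HMGA1, IGF2BP2 and IGF2BP3 stayed nearer to their control. With shRNA4 they were at -0.28, 0.35 and 0.40, and with shRNA6 at -0.09, -0.18 and 0.10. These lay within the central 95% of bright genes, -0.62 to 0.53 for shRNA4 and -0.51 to 0.40 for shRNA6. With shRNA4 and shRNA6 the other HMGA1 probe set (210457_x_at) was at -0.486 and -0.414. The dimmer IGF2BP2 probe set (223963_s_at) was at -0.08 and -0.513, the last just outside that range. Of IGF2BP3, 203820_s_at was at 0.455 and 0.195, 216493_s_at at 0.231 and 0.218, and 1569033_at at -0.263 and 0.382. LIN28B and IGF2BP1 were below the median on every HeyA8 array and have no ratio there. Of the 4 genes measured in HeyA8, 1 was at least 2-fold higher with shRNA4, where 2.37% of 12175 genes were, and 0 with shRNA6, where 2.02% of 12152 were. FAS was at -0.82 and -1.29 with the same hairpins.

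In HepG2 the brightest probe sets of all 6 genes were lower with shRNA6 than in the control, each by little. HMGA1 was at -0.26, IGF2BP1 at -0.25, IGF2BP2 at -0.24, LIN28B at -0.19, HMGA2 at -0.12 and IGF2BP3 at -0.12, beside -0.77 for FAS. Over all genes 53.2% of 7775 bright genes were below 0 and 95% lay between -0.52 and 0.49, so each value was inside the usual range of this pair of arrays. None was 2-fold lower, where 2.56% of 12167 genes were. The dimmer probe sets went both ways. HMGA1 had -0.545 on 210457_x_at, just below that range, HMGA2 -0.476 on 1558683_a_at and IGF2BP1 -0.296 on 223689_at. Upward, IGF2BP1 had 0.04 on 241574_s_at, IGF2BP3 0.43 on 1569033_at and HMGA2 0.62 on 1561633_at. Of the HMGA2 probe sets below the median on both HepG2 arrays, 1558682_at was at 0.91 and 1567223_at at 1.74, and the mean of all HMGA2 probe sets gave 0.23. Arrays scaled to equal medians would move the median over all genes from -0.01 to -0.12 here.

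**Figure D4:**
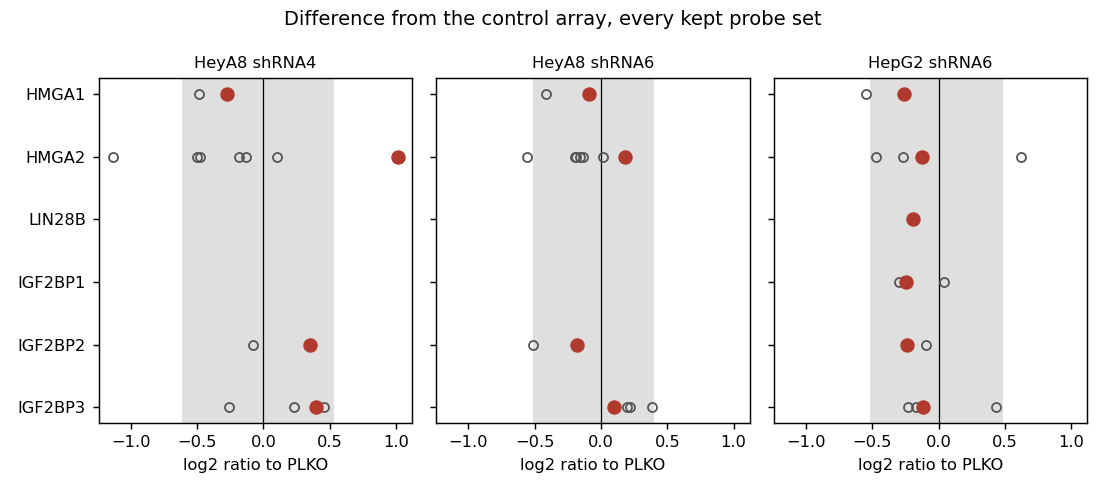
Log2 ratio of each hairpin array to its PLKO control for every probe set of the 6 genes with an array above its median, with filled points for the brightest probe set, open points for the others and a grey band for the central 95% of bright genes. The filled HMGA2 point with shRNA4 in HeyA8, at 1.02, lies outside the band while 5 of the 6 open HMGA2 points on that array lie below 0.

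Whether the knockdown effect differed between the lines was tested by an interaction. No gene of 13936 passed (0% called; limma), and 613 (4.40%) had an unadjusted p under 0.05. HepG2 minus HeyA8 was -0.72 ± 0.49 for HMGA2, -0.37 ± 0.24 for IGF2BP3, -0.32 ± 0.34 for IGF2BP2 and -0.07 ± 0.20 for HMGA1 (log2 ± SE). With the mean of all probe sets HMGA2 turned to 0.49. For LIN28B and IGF2BP1, below the median on every HeyA8 array, the difference cannot be read. Adjusted p-values by limma were 0.999. A gene's own part of the spread behind them is the 1 difference between the HeyA8 hairpins. The rest is drawn from all genes through the prior (1 residual and 4.76 prior degrees of freedom).

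Among other let-7 targets 22 of 30 kept genes were above 0 with shRNA4 in HeyA8, where 53.4% of all kept genes were, with a median of 0.31 against 0.03 for all genes. With shRNA6 15 of 29 were above 0, where 51.2% of all kept genes were, with a median of 0.01 against 0.01. The difference between the hairpins was not tested. With shRNA4 2 reached 2-fold upward and 0 downward (background 2.37% and 2.38%), and with shRNA6 1 and 3 (2.02% and 2.21%). CDK6, a cyclin-dependent kinase, went from 3192 to 7498 with shRNA4, a ratio of 1.23, and to 4377 with shRNA6. INSR was at 1.11 with shRNA4, from signals of 30.4 and 79.8 near the array median, and THBS1, a matrix glycoprotein, at -0.93 and -1.29 with the hairpins. CCND2, a cyclin, was at -1.30 with shRNA6. In HepG2 10 of 33 were above 0, where 48.3% of all kept genes were, with a median of -0.05 against -0.01, and 0 reached 2-fold upward and 2 downward (background 2.65% and 2.56%), MYCN at -1.39 and THBS1 at -1.13. FAS, the targeted gene, is in this list. Both HeyA8 columns share their control array, so their signs are not independent.

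The MIRLET7D probe set had ratios of 0.81 with shRNA4, 0.68 with shRNA6 and 0.54 in HepG2, above 0 on each hairpin array and not past the test (0.66 ± 0.17; limma, adjusted p = 0.991). MIR100HG was at -0.32 and 0.04 in HeyA8. None of 12 processing genes reached 2-fold in any human comparison, with XPO5, the nuclear export receptor of microRNA precursors, at 0.52, 0.24 and -0.12. None of the mRNAs bound by IGF2BP proteins reached 2-fold either, with MYC at 0.33, 0.19 and -0.10 and FSCN1, an actin bundling protein, at -0.00, -0.87 and -0.89. Over all kept genes 4.76% with shRNA4, 4.22% with shRNA6 and 5.22% in HepG2 reached 2-fold either way. None in such short lists is thus near the background. In the oncofetal list CEACAM5 was at 1.97, 1.84 and 1.27, with signals between 17 and 120.2 on the human arrays, and ROR1 at -1.21 with shRNA6.

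Mouse liver with and without Fas was measured on 1 array each. Only Igf2bp3 was above the array median, and Hmga2, Lin28b and Igf2bp1 were below it on both arrays. Hmga1 and Igf2bp2 had no probe set of a single symbol. Igf2bp3 gave 321 in the wild type and 267 in the knock-out (1433731_at), at percentiles of 72.9 and 71.3, a log2 ratio of -0.25 on the log2(signal + 20.5) scale. A probe set prone to cross-hybridise (1433732_x_at) gave 167 and 140. The other Igf2bp3 probe sets ran the other way or were dim, with 90.2 and 104, 68.8 and 112, 24.2 and 42.4, and 3.28 and 2.03. The highest probe sets of the others gave 22.6 and 72.7 for Hmga2, 48.0 and 23.7 for Lin28b, and 56.5 and 17.6 for Igf2bp1, with array medians of 79.9 and 75.2.

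The mouse values were therefore not tested. Igf2bp3 was not 2-fold lower, where 2.57% of 12047 genes were, and Fas was at -1.61. Across species a signal can only be set against its own array, since the probes differ. LIN28B was at percentiles of 97.4 and 97 in HepG2 and Lin28b at 38.7 in wild type and 27.2 in knock-out liver, and IGF2BP1 was at 86.3 and 84.7 against 42.2 and 23.5. These 2 genes were therefore above the median of the array in liver cancer cells and below it in both the wild type and the Fas knock-out mouse liver, as in HeyA8. By its brightest probe set HMGA2 was at 98.7 and 98.6 in HepG2, and Hmga2 at 26.0 in wild type and 49.3 in knock-out liver. HMGA2 differed from the other 2 in being high in HeyA8 as well. The share of all genes with such a contrast between HepG2 and mouse liver was not counted.

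**Figure D5:**
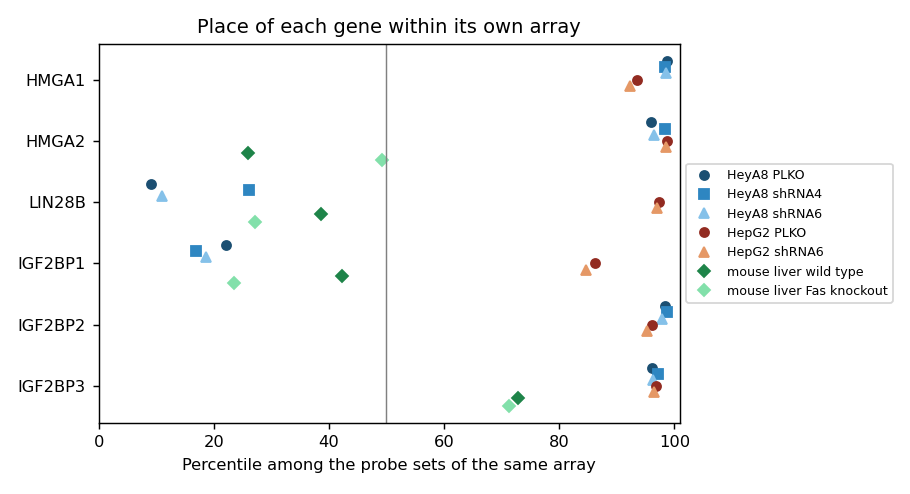
Percentile of the brightest probe set of each gene among all probe sets of its own array, for 5 human arrays and 2 mouse arrays, 1 point per array and no mouse point for HMGA1 and IGF2BP2. LIN28B and IGF2BP1 lie above the vertical line at the median in HepG2 only, and Igf2bp3 is the mouse gene above it, at 72.9 and 71.3.

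Other let-7 targets in liver had a median of -0.01 over 29 kept genes, against -0.02 for all genes, and 1 reached 2-fold upward and 3 downward (background 1.77% and 2.57%). Arid3a, a DNA-binding factor, went from 15.5 to 156, a ratio of 2.30, and Igf1r, a growth factor receptor, and Myc, a growth-promoting transcription factor, were at -1.17 and -1.15, the third gene 2-fold lower being Fas itself. The wild-type signal of Arid3a and the knock-out signal of Igf1r, 64.6, were below the array medians, so their ratios depend on the pseudocount. None of 13 processing genes reached 2-fold, with Khsrp at 0.55. Of 8 kept mRNAs bound by IGF2BP proteins Myc was 2-fold lower and Mki67, a proliferation marker, 2-fold higher, with dim signals of 41.7 and 113. Of the fetal liver genes Afp gave 142 and 223, a ratio of 0.58, and Igf2 121 and 60.6. Epcam, listed as oncofetal and as a bile duct marker, gave 198 and 53.5, the bile duct marker Sox9 147 and 10.3, and the bile duct marker Krt19, below the median on both arrays, 24.5 and 70.6. The summed cholangiocyte signal was 369 in the wild type and 134 in the knock-out, and that of Kupffer cell markers 18385 and 14802, and their part in these ratios was not tested.

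Genes with the most similar profile were taken as those with the smallest distance of mean-centred log2 values over the 5 human arrays, among 8928 bright genes. For LIN28B these were COCH, AGT and KRT23 (distances of 0.44, 0.60 and 0.62, where the median over all genes was 9.10). AGT, the liver-made angiotensin precursor, gave 42.7 to 47.2 in HeyA8 and 15052 and 15259 in HepG2. For IGF2BP1 they were SLC2A2, the hepatic glucose transporter, ZNF280B and GPC6 (0.21, 0.25 and 0.26). For HMGA2 they were ELOVL7, DUSP22 and MACROD1 (0.17, 0.22 and 0.29). The HMGA2 profile matched was that of its brightest probe set (208025_s_at), and most of its other probe sets ran differently. ELOVL7 gave 164, 304 and 180 in HeyA8 and 439 and 384 in HepG2. Its higher shRNA4 signal comes with the choice by profile on these same arrays and adds nothing to that of HMGA2. HMGA1 was most like MAFF, SASH1 and ACER3, IGF2BP2 like TMEM250, EPB41L4A-AS1 and FYCO1, and IGF2BP3 like NAA25, RABGGTB and NFYB.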

How the data were processed

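Total RNA (Qiagen miRNeasy Mini Kit, per the labels' protocols) was hybridised to Affymetrix arrays, 5 human and 2 mouse. The authors deposited linear intensity values, for which the submitters' processing notes name MAS5. The sources used here do not give its version, settings or detection calls. Array medians, 57.8 to 63.4 (human) and 75.2 to 79.9 (mouse), stood in for detection. Human arrays held 54675 probe sets, of which 41091 had 1 symbol, 1801 several and 11721 none, beside 62 controls that were left out. Mouse arrays held 45101, with 34945, 932 and 9160, and 64 controls. For 41037 human probe sets the annotation's gene identifier matched RefSeq, and 0 symbols were updated; mouse symbols are the annotation's and can be old.

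Where a gene had several probe sets, the one of highest mean signal represented it, and _x_at probe sets did so where there was no other. Differences are in log2(signal + c), c being the table's 25th percentile, 12.6 (human) or 20.5 (mouse), which understates those of dim genes. A gene was kept when 1 compared array was above its median. Human arrays were fitted with limma 3.58.1 in R 4.3.3 on cell line and knockdown with a trended prior (2 residual and 5.78 prior degrees of freedom), and with an interaction (1 and 4.76). Single pairs of arrays were not tested and are counted at 2-fold. The fit was tested on simulated data. Other steps used Python 3.11.15, numpy 2.4.6, pandas 2.3.3 and matplotlib 3.10.9.

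The 6 genes and the gene lists were chosen with earlier results of these data known. Named were the 6 genes, FAS, in each list at most 4 genes with the largest difference in a comparison, and the 3 most similar profiles of each of the 6, beside genes that explain a count. Alternatives were other pseudocounts, normalizations, filters, probe set rules, fold thresholds and model terms, and leaving out each array.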

Additional observations from a re-analysis of the deposited data

Results flagged for a closer look

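The brightest HMGA2 probe set was above its control on both HeyA8 hairpin arrays, at log2 ratios of 1.02 and 0.18, and below it on the HepG2 hairpin array, at -0.12. The difference of the knockdown effect, HepG2 minus HeyA8, was -0.72 ± 0.49 (SE; limma, adjusted p = 0.999), so the opposite signs did not pass the test of the difference. With the mean of all HMGA2 probe sets every sign turned: the ratios were -0.27, -0.25 and 0.23, and the difference was 0.49 ± 0.36. The brightest IGF2BP3 probe set showed the same arrangement, with 0.40 and 0.10 in HeyA8 and -0.12 in HepG2, a difference of -0.37 ± 0.24 (SE; limma, adjusted p = 0.999). The mean of all IGF2BP3 probe sets kept these signs, while its dimmest (1569033_at) gave -0.263, 0.382 and 0.431. Of bright genes 56.2% with shRNA4 and 54.5% with shRNA6 were above 0 in HeyA8, and 53.2% were below 0 in HepG2. Both HeyA8 ratios of each gene share a control array.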

How the results depend on the processing

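The calls between the cell lines for HMGA1, LIN28B, IGF2BP1 and IGF2BP2 kept direction and significance in 15 of 15 alternatives, with ranges of 1.99 to 2.17, -9.78 to -6.79, -6.82 to -4.26 and 1.05 to 1.37. HMGA2 turned to 1.43 with the mean of all probe sets, which also gave 0.14 for IGF2BP3. IGF2BP3 was 0.007 with equal medians and ranged from -0.24 to 0.13 when single arrays were left out. The count of genes called between the lines was 8079 of 13936, 14615 of 27574 when every probe set was fitted, and 5499 to 8042 without single arrays.

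Equal medians gave 2 genes for the common FAS effect, against 0, and neither was one of the 6. The mean of all probe sets gave common effects of -0.05 for HMGA2 and 0.005 for IGF2BP1, an interaction of 0.49 for HMGA2 and HMGA2 ratios of -0.27 and -0.25 in HeyA8 and 0.23 in HepG2. Without a cell line term HMGA1, LIN28B and IGF2BP2 were at 0.14, -1.25 and 0.15. Leaving out single arrays gave -0.12 to 0.60 for HMGA2, -0.19 to 0.40 for LIN28B, -0.24 to 0.085 for IGF2BP2 and -0.12 to 0.25 for IGF2BP3. A pseudocount of 1 turned the IGF2BP1 interaction to 0.16. Knockdown values of LIN28B and IGF2BP1 rest in part on HeyA8 signals below the median.

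Counts past 2-fold were 579, 513, 635 and 523 for shRNA4 and shRNA6 in HeyA8, shRNA6 in HepG2 and mouse liver. In that order they were 226, 172, 274 and 294 with a pseudocount of 50, 2134, 1929, 2255 and 1555 without a filter, and 56, 30, 69 and 44 with the filter at the 75th percentile. They were 1575, 1324, 1537 and 1508 at 1.5-fold and 228, 208, 271 and 197 at 3-fold, and 373 and 326 in HeyA8 with the mean of all probe sets. Causes were not tested.

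No paired analysis was possible because each group holds 1 array and the labels carry no replicate numbers. The interaction could not be fitted without single arrays, since no residual degree of freedom is left. Signals under the array medians limit LIN28B and IGF2BP1 in HeyA8 and the mouse genes other than Igf2bp3 to upper bounds.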
